A study of Danio rerio with 14 samples.

Results

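Of the 32520 genes counted in zebrafish intestine, 14 carried a usable symbol and were far higher in every transgenic library than in any wild-type library: cbln7, CCS, BIN1, taco1, ARPP19, YBEY, ACKR3, ptpdc1b, xkr8.1, KCTD6, luzp2, plekhg2, hbl4 and dnase1l1. A gene entered the set when its lowest value in the 6 transgenic libraries was at least 1 CPM (the count scaled to a common library total) and at least 2 times its highest value in the 8 wild-type libraries. In all, 62 genes passed both limits. Of these, 26 have a symbol with a colon, the form given to unnamed clones, and 10 have no symbol. Another 12 belong to families or genes that were left out by the start of their symbol. The genes were thus chosen by their CPM values in the 2 genotypes. The genotype difference is described below with no test, and it supports nothing.

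The genes are described here by role, from general knowledge. A first group acts outside or at the surface of cells. Cerebellins such as cbln7 are secreted proteins with a C1q domain, hexose-binding lectins such as hbl4 bind sugars on microbes, ACKR3 is an atypical receptor that clears the chemokine Cxcl12, and in mammals XKR8 exposes phosphatidylserine on dying cells. A second group acts in signalling and the cytoskeleton, with ARPP19, a cAMP-regulated inhibitor of protein phosphatase, at its head. The last group serves mitochondria and copper handling: in humans TACO1 activates translation of a cytochrome oxidase subunit and YBEY processes mitochondrial ribosomal RNA, and CCS loads copper into superoxide dismutase. Agouti signalling protein antagonizes melanocortin receptors, which signal through cAMP.

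The transgenic fish carried Tg(Xla.Eef1a1:Cau.Asip1)iim04, which by the usual naming of such constructs places goldfish Asip1 under the broadly active frog Eef1a1 promoter, and the wild-type fish were of the Tubingen strain. The titles carry the letters M and H, which the labels do not explain; 3 transgenic libraries have each letter, as do 4 wild-type libraries. The labels give no age, and they do not say what background the transgenic line has, so that a strain difference and the transgene cannot be told apart. Nor do the labels say that each library came from its own fish, so the spread behind every p-value may be technical. The study's title asks how agouti overproduction relates to the integrity of the intestine, its permeability and amino acid transport.

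Total counts lay between 11792225 and 14091791 in transgenic libraries and between 9847910 and 13727372 in wild-type libraries. The goldfish transgene has no entry in the table. The zebrafish gene ASIP had 0 to 4 counts in each transgenic library and 0 to 5 in each wild-type library, so the labels could not be checked on the transgene itself. Enterocyte markers, 13 genes that match all 10 names of the list, summed to between 7721 and 22240 CPM in transgenic libraries, and to 317 CPM in wild-type H replicate 6, 3387 CPM in wild-type H replicate 7 and between 12188 and 15952 CPM in the other wild-type libraries. Those 2 wild-type libraries stood apart, with 4778 and 843 CPM of ovary and oocyte markers, against at most 79.2 CPM in transgenic libraries and 210 CPM in the other wild-type ones. Transgenic H replicates 13, 14 and 16 gave 18.2%, 7.95% and 21.0% of their counts to vitellogenins, and wild-type H replicate 8 gave 6.18%. Because CPM is a share of the total, such transcripts lower the CPM of all other genes in their library. In intestine sequenced in bulk, fewer cells of a type and less RNA per cell cannot be told apart.

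**Figure D1:**
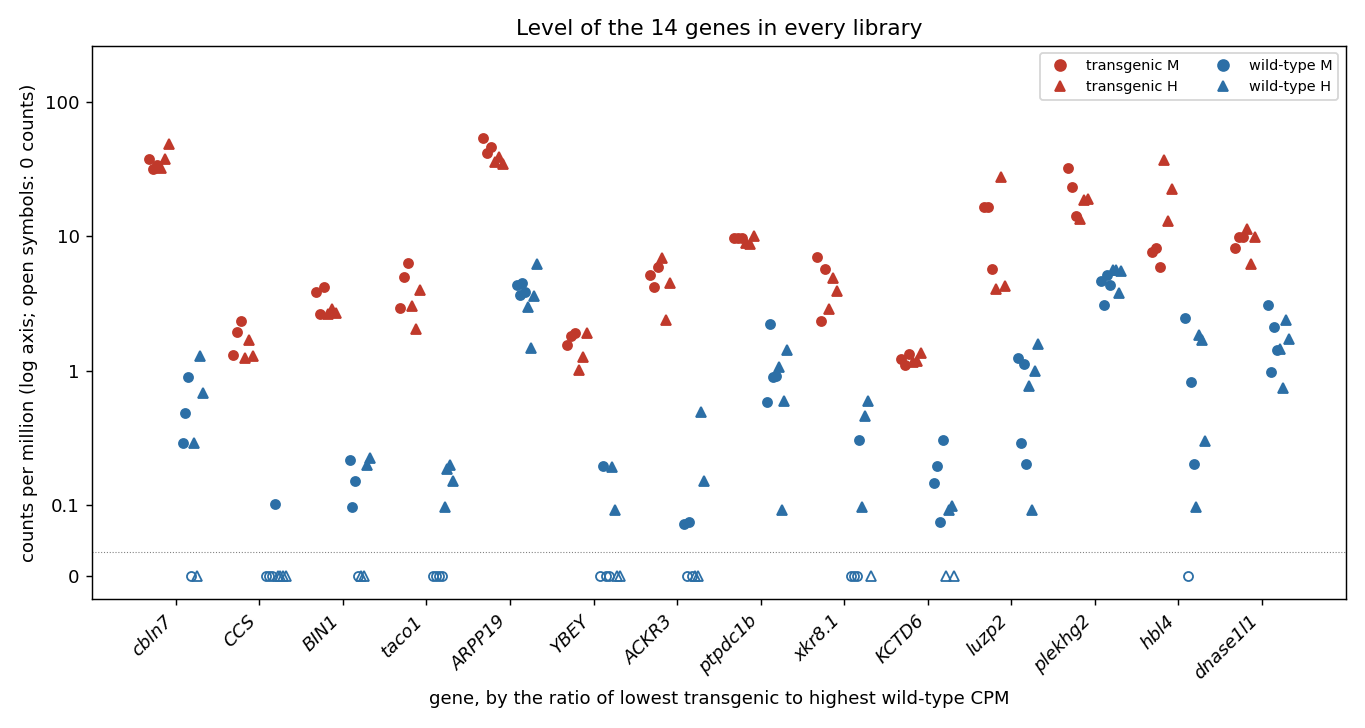
CPM of each of the 14 genes in every library, on a log axis, with transgenic libraries left (red) and wild-type libraries right (blue), circles for M, triangles for H and open symbols for 0 counts. The genotypes do not overlap for any gene because the genes were chosen for that, and the gap is widest for cbln7, at 31.6 CPM or more in transgenic libraries and at most 1.29 CPM in wild-type ones.

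Among the genes of secreted and surface proteins, cbln7 (ENSDARG00000095040) stood highest. Its lowest, median and highest CPM were 31.6, 35.5 and 48.2 in transgenic libraries, against 0, 0.388 and 1.29 in wild-type libraries, which is a total of 2804 against 46 counts. The lowest transgenic value was 24.5 times the highest wild-type value, the widest gap in the set, and 35.1 times without wild-type H replicates 6 and 7. The lectin gene hbl4 (ENSDARG00000054202) varied far more, with 5.92, 10.6 and 36.6 CPM in transgenic libraries and 0, 0.564 and 2.48 CPM in wild-type libraries. Its gap of 2.39 times lies near the limit.

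ACKR3 (ENSDARG00000058179) was nearly silent in wild-type intestine. It had 2.37, 4.80 and 6.93 CPM as lowest, median and highest in transgenic libraries, against 0, 0.0364 and 0.497 CPM in wild-type libraries, with 0 counts in 4 of the 8. The highest wild-type value came from replicate 7 of the H libraries, one of those that stood apart, and without replicates 6 and 7 the gap widened to 15.8 times from 4.78 times. xkr8.1 (ENSDARG00000004498) showed the same layout. Its values were 2.34, 4.41 and 7.0 CPM in transgenic libraries, against 0, 0.0483 and 0.596 CPM in wild-type libraries, and its gap of 3.93 times became 7.69 times without replicates 6 and 7.

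In the signalling and cytoskeleton group, ARPP19 (ENSDARG00000032532) was the only gene besides cbln7 above 30 CPM in every transgenic library. It had 34.4, 40.2 and 53.4 CPM in transgenic libraries, against 1.49, 3.77 and 6.25 CPM in wild-type libraries, and no wild-type library was at 0. plekhg2 (ENSDARG00000058459) had the highest wild-type mean and median CPM of the set. It was at 13.4, 18.8 and 32.0 CPM in transgenic libraries, against 3.1, 4.93 and 5.6 CPM in wild-type libraries.

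ptpdc1b (ENSDARG00000058873), which encodes a protein tyrosine phosphatase domain, was the steadiest gene of the set across transgenic libraries, though not across wild-type ones. Its transgenic values ran from 8.82 to 10.01 CPM around a median of 9.69, against 0.0928, 0.908 and 2.23 CPM in wild-type libraries. BIN1 (ENSDARG00000042114), which in mammals bends membranes, had 2.65, 2.79 and 4.17 CPM in transgenic libraries, against 0, 0.124 and 0.226 CPM in wild-type libraries. KCTD6 (ENSDARG00000023703), in mammals an adaptor of cullin ubiquitin ligases, entered at the CPM limit. It had 14 to 19 counts in each transgenic library, or 1.09 to 1.35 CPM, against 0 to 3 counts in each wild-type library, or at most 0.305 CPM.

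The mitochondrial and copper genes had few counts in wild-type fish. taco1 (ENSDARG00000062943) had 2.04, 3.51 and 6.34 CPM in transgenic libraries. It had 0 counts in all 4 wild-type M libraries and 1 to 2 counts in each wild-type H library. CCS (ENSDARG00000116246) had 16 to 28 counts in each transgenic library and a single count over all wild-type libraries, in M replicate 4. Because CCS was chosen for its low wild-type values, its ratio between genotypes is given no size or interval here. YBEY (ENSDARG00000110510) had 13 to 27 counts in each transgenic library, at 1.01 CPM or more, against 0 to 2 counts in each wild-type library. At such counts the size of the wild-type level is poorly fixed.

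The remaining genes fall in none of these groups, and neither was at 0 in any wild-type library. luzp2 (ENSDARG00000068247), a leucine zipper gene, had 4.05, 11.06 and 27.4 CPM in transgenic libraries, against 0.0928, 0.883 and 1.58 CPM in wild-type libraries. dnase1l1 (ENSDARG00000005464), a relative of deoxyribonuclease I, lay closest to the fold limit. It had 6.19, 9.88 and 11.4 CPM in transgenic libraries, against 0.743, 1.59 and 3.06 CPM in wild-type libraries, a gap of 2.02 times.

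Over the set, the gap had a median of 4.37 times, and 62 of the 13970 genes at 1 CPM or more in every transgenic library passed both limits, or 0.444%. Without the fold limit, 203 of those genes, or 1.45%, did not overlap between genotypes and were higher in transgenic libraries. Just inside the fold limit were dnase1l1, hbl4 and plekhg2 (2.02, 2.39 and 2.39 times). Just outside were TTPA, the tocopherol transfer protein, uqcc5, an assembly factor of respiratory complex III, and TFCP2L1, a transcription factor (1.86, 1.86 and 1.8 times). Just inside the CPM limit were YBEY, KCTD6 and CCS, whose lowest transgenic values were 1.01, 1.09 and 1.25 CPM. Just outside were ACOT9, PAX1 and MPP3, at 0.781, 0.594 and 0.594 CPM.

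**Figure D2:**
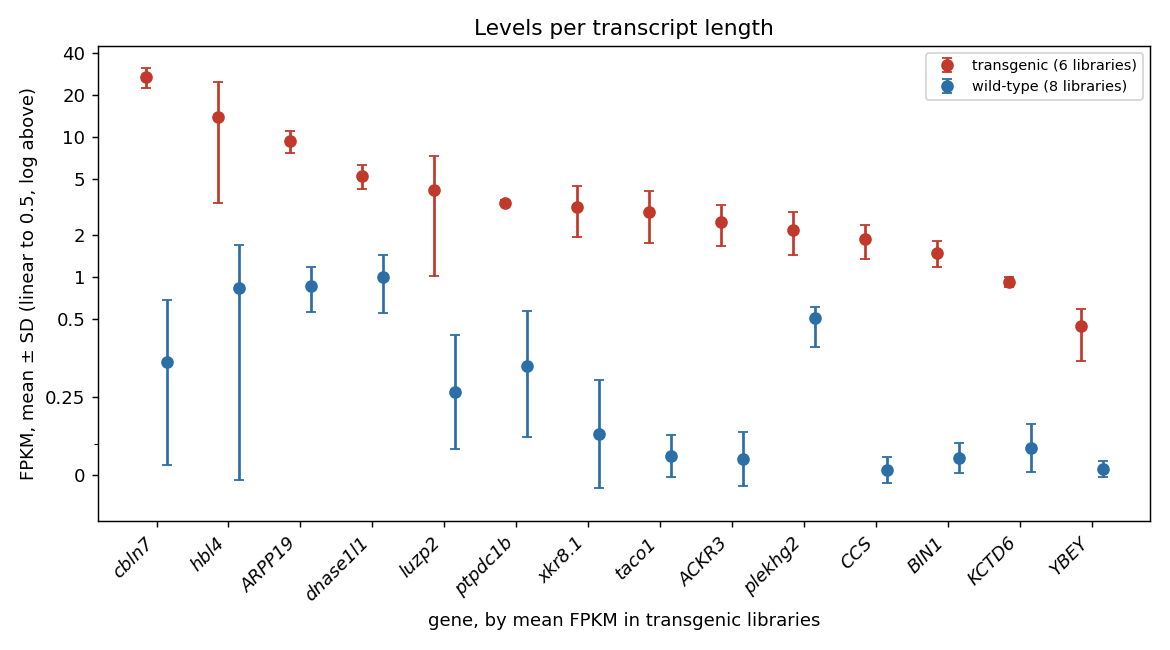
Mean FPKM with SD of the 14 genes in transgenic libraries (red, left, n = 6) and wild-type libraries (blue, right, n = 8), on an axis that is linear up to 0.5 and logarithmic above. cbln7 leads in transgenic libraries at 27.0 FPKM, whereas dnase1l1 leads in wild-type libraries at 0.995 FPKM.

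Levels of different genes can be set side by side only per length, and the authors' FPKM values, counts scaled by gene length and library total, serve for that. In transgenic libraries cbln7 averaged 27.0 ± 4.51 FPKM, hbl4 14.1 ± 10.7, ARPP19 9.42 ± 1.63 and dnase1l1 5.30 ± 1.04 FPKM (SD, n = 6). The last of the order were BIN1 at 1.49 ± 0.319, KCTD6 at 0.922 ± 0.0745 and YBEY at 0.479 ± 0.113 FPKM. The other 7 genes lay between 1.86 FPKM (CCS) and 4.17 FPKM (luzp2). Neighbours in this order had overlapping ranges, except that ARPP19 lay above dnase1l1, BIN1 above KCTD6 and KCTD6 above YBEY in every transgenic library. In wild-type libraries all 14 means were under 1 FPKM, from 0.0144 ± 0.0408 for CCS to 0.995 ± 0.438 for dnase1l1 (SD, n = 8). There every neighbour in the order overlapped the next.

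The genes differed in how evenly the transgenic libraries carried them. The highest transgenic value was 1.13 times the lowest for ptpdc1b and 1.23 times for KCTD6. It was under 2 times for 8 of the 14 genes, between 2.39 and 3.11 times for plekhg2, ACKR3, xkr8.1 and taco1, 6.18 times for hbl4 and 6.76 times for luzp2. The low spread is partly set by the choice of the genes, since a gene with 1 low transgenic library could not enter.

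The unevenness of hbl4 and luzp2 ran in part alongside tissue markers, of which only some lists are set beside them here. hbl4 was at 36.6, 13.1 and 22.4 CPM in transgenic H replicates 13, 14 and 16, and at 7.65, 8.20 and 5.92 CPM in transgenic M replicates 9, 10 and 11. Markers of liver, 6 of the 7 listed and none at 0 in all libraries, summed to 20772, 1634 and 18985 CPM in those H libraries and to 3650, 7461 and 1416 CPM in those M libraries. The highest hbl4 values thus stood beside the highest liver sums, though H replicate 14 was above all M libraries with a low liver sum. Vitellogenins, at 18.2%, 7.95% and 21.0% of the counts in these H libraries, were under 0.001% in each transgenic M library. In wild-type libraries the liver sum ran from 289 to 24442 CPM, where the choice of the genes keeps hbl4 low. Within that low range, hbl4 was at 2.48 and 0.827 CPM in wild-type M replicates 1 and 3. It was at 1.86 and 1.69 CPM in wild-type H replicates 6 and 7. The liver sums of these libraries were 11258, 24442, 10563 and 7774 CPM. In the other wild-type libraries hbl4 was at 0 to 0.301 CPM, with liver sums of 289 to 2874 CPM.

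luzp2 ran in part alongside enterocyte and immune markers. It was highest in transgenic H replicate 14, at 27.4 CPM, where enterocyte markers summed to 22240 CPM. It was lowest in transgenic H replicates 13 and 16, at 4.05 and 4.26 CPM, where enterocyte markers summed to 8341 and 7721 CPM. Among M libraries, however, replicates 9, 10 and 11 had 16.4, 16.6 and 5.67 CPM of luzp2 at near-equal enterocyte sums of 15976, 16559 and 16008 CPM. Immune markers, 6 genes for 4 of the 5 names listed with 1 of them at 0 in all libraries, summed to 2506, 2719 and 2096 CPM in those M libraries and to 1587, 2853 and 1318 CPM in transgenic H replicates 13, 14 and 16. M replicate 11, with the lowest luzp2 of the M libraries, thus also had their lowest immune sum. The immune list was not alone in this. Liver, goblet, erythrocyte and pigment markers were also lowest there among the transgenic M libraries, at 1416, 181, 15.4 and 2.25 CPM. Exocrine pancreas, smooth muscle and enteroendocrine markers were highest there, at 20162, 1980 and 196 CPM. Other lists set H replicate 14 apart as well. Its sums of exocrine pancreas, smooth muscle and goblet markers, at 1411, 500 and 90.3 CPM, were the lowest of the transgenic libraries. The part of these tissues in the values was not tested.

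**Figure D3:**
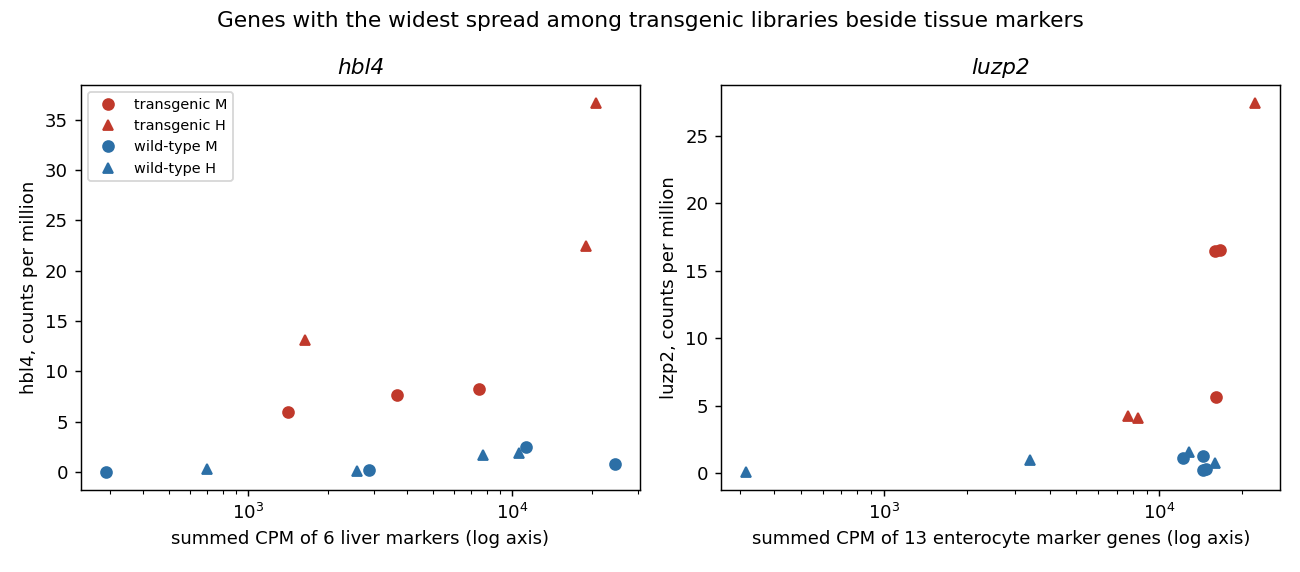
CPM of hbl4 against the summed CPM of 6 liver markers, and of luzp2 against that of 13 enterocyte marker genes, 1 point per library on a log horizontal axis, with transgenic libraries red and wild-type libraries blue. Among transgenic libraries the highest hbl4 value, 36.6 CPM, stands at the highest liver sum, 20772 CPM, and the highest luzp2 value, 27.4 CPM, at the highest enterocyte sum, 22240 CPM, while the gap to wild-type points follows from the choice of the genes.

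The letters H and M were not used to choose the genes, so H and M were compared by test. The choice did use the value of every library, however, and so limits the spread within a genotype. A lack of calls among the 14 genes is therefore partly set by the choice. This holds for each comparison of H and M below. With edgeR's quasi-likelihood test over all 18619 tested genes, where all 14 genes passed the filter on low counts, 0 of the 14 differed between H and M averaged over genotypes, with 1 at an unadjusted p under 0.05. The background was 0% of all genes called, and 1449 genes at that unadjusted p. DESeq2 also called 0 of the 14, against 344 genes in all. Of the 14 log2 differences 8 were positive, with a median of 0.09, against 0.03 over all genes. That median ran from -0.08 to 0.21 with single libraries left out.

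Within transgenic fish 0 of 14 differed between H and M in either tool, against a background of 0% in edgeR and 46 genes in DESeq2. An unadjusted p under 0.05 came for 0 of the 14 in edgeR and 1 in DESeq2, against 1.76% and 2.6% of all genes. hbl4 had the smallest p there. It averaged 24.0 ± 11.9 CPM in transgenic H and 7.26 ± 1.19 CPM in transgenic M libraries (SD, n = 3 each), a log2 difference of 2.02 (SE 1.0, edgeR adjusted p = 1). All 3 H libraries were above all 3 M libraries, but hbl4 was picked by its p, and the share of all genes separated in this way was not counted.

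Within wild-type fish 0 of 14 differed in edgeR and 2 had an unadjusted p under 0.05, against a background of 0.00537% called and 20.5% at that unadjusted p. DESeq2 called 0 of the 14, against 1625 genes in all, or 8.73%. taco1 was the first of those 2, with 1 to 2 counts in each H library and 0 in each M library (log2 difference 3.86, SE 0.82, edgeR adjusted p = 0.108). KCTD6 was the other, at 0.0480 ± 0.0555 CPM in wild-type H and 0.180 ± 0.0964 CPM in wild-type M libraries (SD, n = 4 each; log2 difference -1.85, SE 0.71, edgeR adjusted p = 0.228). Both rest on 0 to 3 counts per library. When wild-type H replicate 5 was left out taco1 passed (3.96, SE 0.90, edgeR adjusted p = 0.0352), in a fit that called 1943 genes.

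The size of the genotype difference was also compared between H and M, with the same limit from the choice of the genes. It differed for 0 of 14 genes in edgeR and DESeq2, against a background of 0% in edgeR and 24 genes in DESeq2. An unadjusted p under 0.05 in edgeR came for taco1 and KCTD6, against 6.9% of all genes. Both have only 0 to 3 counts in each wild-type library. For taco1 the log2 difference in H minus that in M was -4.24 (SE 0.92, edgeR adjusted p = 0.667), and for KCTD6 it was 2.17 (SE 0.88, edgeR adjusted p = 0.667). For the other 12 genes it ran from -1.75 in xkr8.1 to 2.15 in hbl4, with SE of 0.52 to 1.40. Differences within those errors could not have been seen in these libraries.

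For 6 of the 14, the table holds a further gene of the same symbol, and the balance of the 2 copies differed between the genotypes. Zebrafish keep many duplicated genes from a whole-genome duplication in the ancestor of teleosts, but whether these pairs stem from it was not tested. The identifiers tell the copies apart here, but reads of near-identical copies may have been split between them in the counting. The shares below are of CPM summed over libraries and not of molecules per length. The choice of the first copy of each pair enters them, so they carry no test.

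For ARPP19, the always-higher copy made up 72.7% of the summed CPM of both copies in transgenic libraries and 11.3% in wild-type libraries. The other copy (ENSDARG00000039880) was at 15.7 ± 1.70 CPM in transgenic and 30.2 ± 36.3 CPM in wild-type libraries (SD, n = 6 and 8; log2 fold change -0.50, SE 0.43, edgeR adjusted p = 0.522). Its wild-type mean rests on H replicates 6 and 7, at 116 and 43.4 CPM, and its log2 fold change without them was 0.29 (adjusted p = 0.322 in edgeR). The wild-type share of 11.3% is pooled over libraries, so these 2 libraries lower it as well.

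YBEY was the pair whose other copy was called over all libraries. Its always-higher copy lies at row 32493 of the 32520 in the count table, 20663 rows from the other. No chromosome could be assigned to it. The copy ENSDARG00000011999 was lower in transgenic libraries, at 0.25, 0.482 and 1.06 CPM as lowest, median and highest, against 1.65, 3.09 and 4.95 CPM in wild-type libraries. The libraries did not overlap (log2 fold change -2.48, SE 0.38, edgeR adjusted p = 0.00236), and the call held in each of the 14 fits that left out 1 library. Together the 2 copies summed to 2.12 ± 0.496 CPM in transgenic and 3.46 ± 1.29 CPM in wild-type libraries. The always-higher copy made up 74.6% and 1.73% of that CPM. A lower level of ENSDARG00000011999 cannot be told apart here from a shift of reads between the copies.

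The 2 CCS genes lie 3 rows apart in the table, whose order follows the genome, with rbm14b and actn3b between them. The other CCS (ENSDARG00000092003) was at 9.37 ± 3.26 CPM in transgenic and 17.2 ± 5.22 CPM in wild-type libraries (SD, n = 6 and 8; log2 fold change -0.69, SE 0.32, edgeR adjusted p = 0.265). In the fit lacking wild-type H replicates 6 and 7 it passed, at -0.94 (SE 0.23, adjusted p = 0.030 in edgeR). The always-higher CCS made up 14.9% of the summed CPM in transgenic and 0.0738% in wild-type libraries.

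The other copies of BIN1, KCTD6 and ACKR3 gave no call. BIN1 (ENSDARG00000058820) was at 5.48 ± 2.40 CPM in transgenic and 8.79 ± 14.2 CPM in wild-type libraries (log2 fold change 0.03, edgeR adjusted p = 0.981), and wild-type H replicate 6 alone reached 43.1 CPM. In the fit lacking wild-type H replicates 6 and 7 its log2 fold change was 0.89 (SE 0.29, adjusted p = 0.0894 in edgeR). KCTD6 (ENSDARG00000043095) was at 3.36 ± 1.84 CPM in transgenic and 3.44 ± 1.78 CPM in wild-type libraries (log2 fold change 0.20, edgeR adjusted p = 0.792). ACKR3 (ENSDARG00000062478) was too low to be tested, at no more than 0.0710 CPM in any transgenic and 0.298 CPM in any wild-type library. The always-higher ACKR3 made up 99.8% of the summed CPM in transgenic and 58.5% in wild-type libraries, where the 2 copies had 9 and 6 counts in all.

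**Figure D4:**
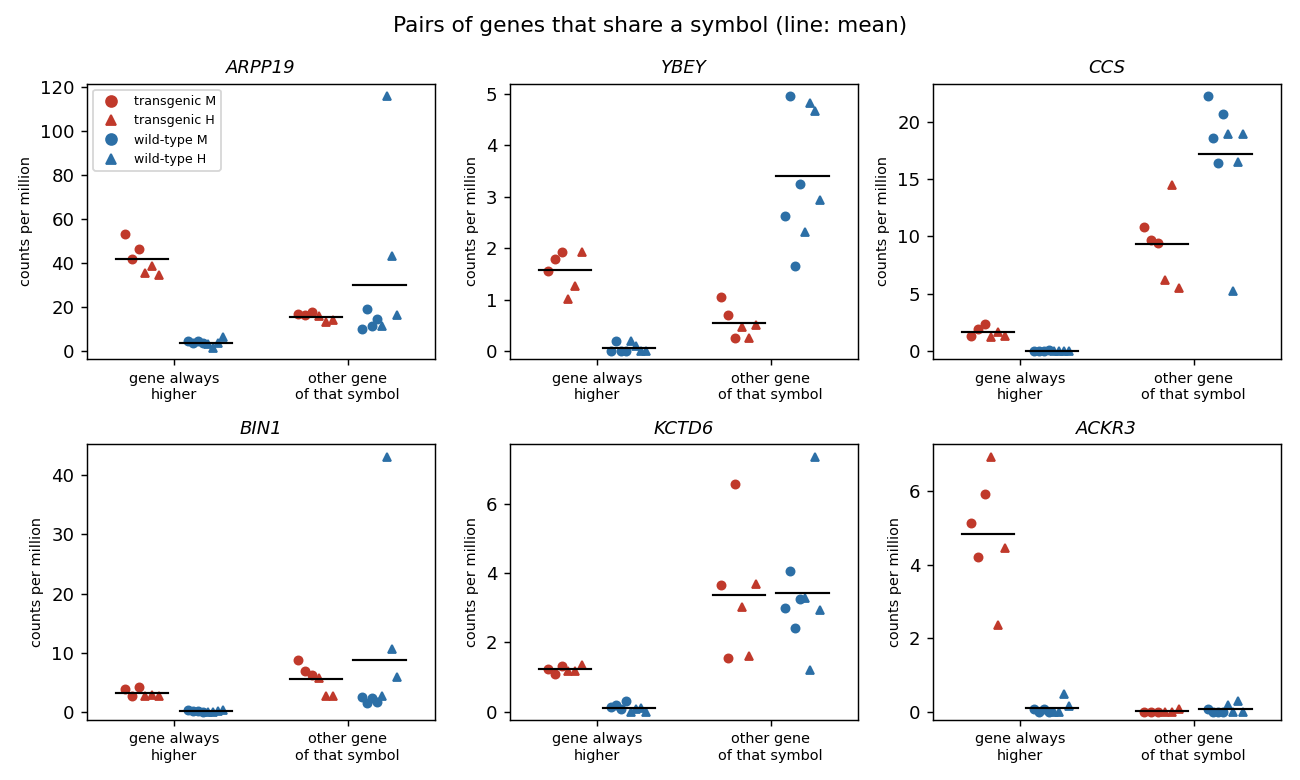
CPM of the 6 genes whose symbol is shared (left in each panel) and of the other gene of that symbol (right), with transgenic libraries red and left, wild-type libraries blue and right, and lines for means. The other YBEY gene lies lower in all 6 transgenic libraries, at 1.06 CPM or less, than in any wild-type library, at 1.65 CPM or more.

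Wider families were taken by symbol: genes with the same stem, 77 in 13 families, of which 52 could be tested. Of these, 1 rose and 1 fell in transgenic fish, 3.85%, against 4.21% of all genes tested. The median log2 fold change was -0.09, against -0.11 over all genes. The gene that fell is the other YBEY. The one that rose is cbln5, a cerebellin that lies near hbl4 in the table. It had 2.85, 6.88 and 1.17 CPM in transgenic M replicates 9, 10 and 11, and 11.3, 0.594 and 9.58 CPM in transgenic H replicates 13, 14 and 16. In wild-type libraries it had 0 to 1.05 CPM, so that transgenic H replicate 14 lay inside the wild-type range (log2 fold change 3.95, SE 0.86, edgeR adjusted p = 0.0200). It lost its call without transgenic M replicate 10 (adjusted p = 0.0636 in edgeR). Liver markers summed to 3650, 7461 and 1416 CPM in transgenic M replicates 9, 10 and 11. They summed to 20772, 1634 and 18985 CPM in transgenic H replicates 13, 14 and 16. The highest cbln5 values thus stood beside the highest liver sums. Wild-type M replicate 3, at 24442 CPM of liver markers, had 1.05 CPM of cbln5. The part of liver in cbln5 was not tested.

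Other cerebellins spread in both directions. cbln13 was at 12.4 ± 5.36 CPM in transgenic and 4.58 ± 4.18 CPM in wild-type libraries (log2 fold change 1.62, SE 0.55, edgeR adjusted p = 0.136). cbln6 was at 0 in each of the 6 transgenic libraries and averaged 2.0 ± 2.22 CPM in wild-type ones, and did not pass (edgeR adjusted p = 0.116). The nearby relatives of xkr8.1 did not pass, and xkr8.2 was at 3.72 ± 1.58 CPM in transgenic and 10.99 ± 7.35 CPM in wild-type libraries (log2 fold change -1.33, SE 0.77, edgeR adjusted p = 0.354). In the fit lacking wild-type H replicates 6 and 7, xkr8.2 passed, at -1.79 (adjusted p = 0.00931 in edgeR), and 7 relatives passed in all, 1 higher and 6 lower, against a background of 7.88% in that fit.

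The positions of the genes were read from the order of the count table, in which 96.9% of neighbouring placed genes are on the same chromosome of a reference gene table (assembly GRCz12tu). Most of the 14 lay far apart, but KCTD6 and dnase1l1 had only 3 rows between them, luzp2 and ARPP19 had 12, and hbl4 and cbln7 had 51. No other gene past both limits, named or not, lay within 10 rows of any of the 14.

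uqcc5 sits between KCTD6 and dnase1l1, and it rose as well. It had 2.41, 3.23 and 5.21 CPM as lowest, median and highest in transgenic libraries, against 0.497, 0.666 and 1.30 CPM in wild-type libraries. It is one of the genes just outside the fold limit, and its libraries did not overlap (log2 fold change 2.18, SE 0.34, edgeR adjusted p = 0.00288). The other tested neighbours of KCTD6 and dnase1l1 did not pass. Among them slmapb was at 1.44 ± 0.680 CPM in transgenic and 7.27 ± 14.6 CPM in wild-type libraries (log2 fold change -1.29, SE 0.74, edgeR adjusted p = 0.347), and RPL10, a ribosomal protein gene, was at 492 CPM in transgenic and 583 CPM in wild-type libraries (log2 fold change -0.07, edgeR adjusted p = 0.914).

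In the order of the reference table, 8 of the 14 could be placed. Of the 80 tested genes within 5 on either side, 3 rose and 0 fell in edgeR, or 3.75% called. Of all genes 4.21% were called, 2.19% higher and 2.02% lower. An unadjusted p under 0.05 came for 12 of the 80, against 19.1% of all genes. DESeq2 called 6 higher and 2 lower, against 786 higher and 986 lower of all 18619 genes, or 9.52% called. Besides uqcc5 the 3 were il15l, an interleukin 15-like cytokine and the nearest tested gene to plekhg2, and DNAJC9, a histone co-chaperone near taco1. il15l had 6.88, 17.9 and 24.4 CPM in transgenic libraries, against 2.23, 5.27 and 8.30 CPM in wild-type libraries, with an overlap (log2 fold change 1.73, SE 0.34, edgeR adjusted p = 0.0105). DNAJC9 had 6.87, 11.2 and 12.2 CPM in transgenic libraries, against 3.48, 4.70 and 8.24 CPM in wild-type libraries, also with an overlap (log2 fold change 1.12, SE 0.23, edgeR adjusted p = 0.0151).

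The order of the count table covers all 14 genes. There 4 of 126 neighbours rose and 0 fell, or 3.17% called, against 2.19% higher and 2.02% lower of all genes. No chromosome could be assigned to YBEY, so the genes beside it in that order may not be its neighbours on the genome. The remaining one was st6gal2b, a sialyltransferase gene 2 tested genes from ACKR3. It had 34.2, 47.6 and 72.0 CPM in transgenic libraries, against 6.24, 8.64 and 36.5 CPM in wild-type libraries (log2 fold change 2.04, SE 0.27, edgeR adjusted p = 0.000996). All wild-type libraries but H replicates 6, 7 and 8 were under 9 CPM, and only H replicate 8 overlapped the transgenic range. The 4 calls of both orders, those of uqcc5, il15l, DNAJC9 and st6gal2b, held in each of the 14 fits that left out 1 library.

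**Figure D5:**
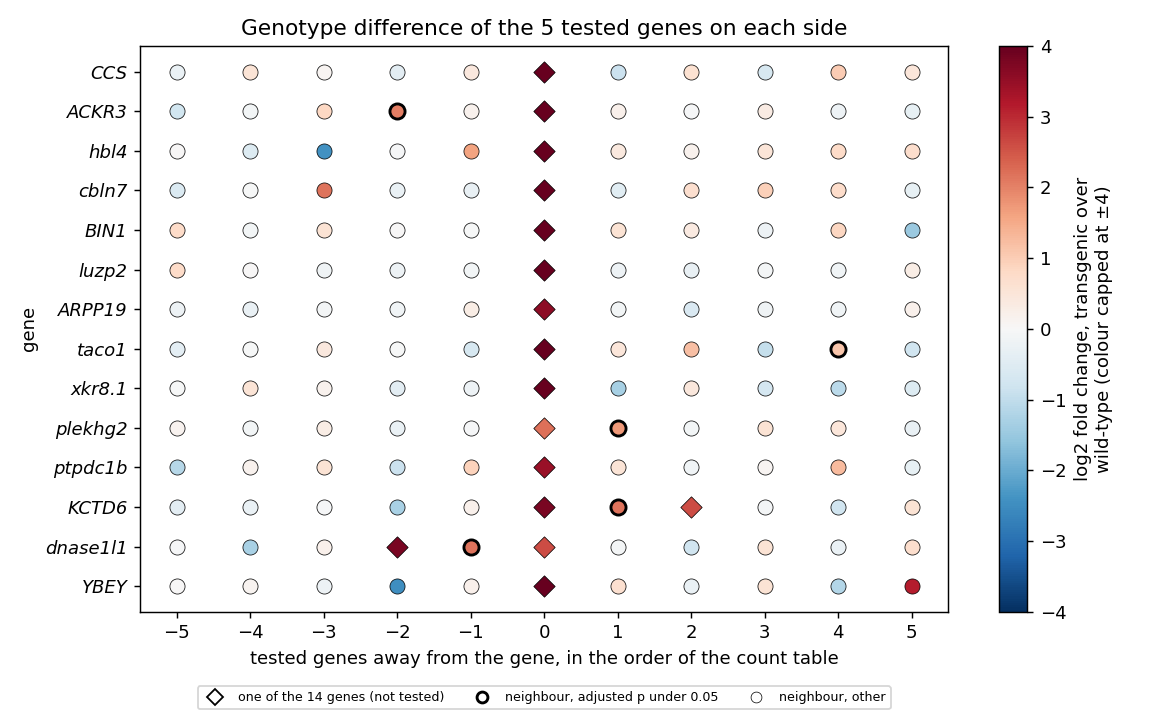
Log2 fold change of transgenic over wild-type libraries for the 5 tested genes on each side of each of the 14 genes (diamonds), in the order of the count table, coloured from blue (lower) to red (higher), with thick rims for neighbours that passed. The 4 neighbours with thick rims are st6gal2b near ACKR3, DNAJC9 near taco1, il15l next to plekhg2 and uqcc5 between KCTD6 and dnase1l1, which is drawn in both rows.

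ACKR3 shares its ligand Cxcl12 with the signalling receptor Cxcr4, so a list of chemokine and chemokine receptor genes was counted beside it. The list also holds genes of other chemokines and receptors, such as cxcl8a, CXCR1 and ACKR2. Of its 12 other tested genes 1 rose and 1 fell, against 2.19% and 2.02% of all genes. No Cxcl12 or Cxcr4 gene was called. CXCL12 was at 56.1 ± 21.1 CPM in transgenic and 55.7 ± 59.9 CPM in wild-type libraries (SD, n = 6 and 8; log2 fold change 0.39, SE 0.39, edgeR adjusted p = 0.586). CXCR4 (ENSDARG00000041959) was at 27.7 ± 20.5 CPM in transgenic and 21.8 ± 10.996 CPM in wild-type libraries (log2 fold change 0.39, edgeR adjusted p = 0.648). The other CXCR4 (ENSDARG00000057633) was at 3.77 ± 1.76 CPM in transgenic and 6.55 ± 4.92 CPM in wild-type libraries (log2 fold change -0.50, edgeR adjusted p = 0.537). The second ligand gene, cxcl12b, was at 2.98 ± 2.90 CPM in transgenic and 5.21 ± 7.52 CPM in wild-type libraries (log2 fold change -0.21, edgeR adjusted p = 0.905). The levels of these ligand and receptor genes overlapped between genotypes.

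CXCL14, an epithelial chemokine, was the gene of this list that rose, at 6.81, 11.8 and 16.6 CPM in transgenic libraries, against 0.650, 1.91 and 19.2 CPM in wild-type libraries (log2 fold change 1.96, SE 0.49, edgeR adjusted p = 0.0420). cxcl8a, a neutrophil attractant, fell to 2.42, 8.12 and 10.3 CPM in transgenic libraries, against 6.18, 25.2 and 159 CPM in wild-type libraries (log2 fold change -2.13, SE 0.54, edgeR adjusted p = 0.0440). Both overlapped between genotypes, and the calls held in 2 and 3 of the 14 fits that left out 1 library. The overlap of CXCL14 came from wild-type H replicate 7 alone, at 19.2 CPM. In the fit lacking wild-type H replicates 6 and 7, cxcl8a did not pass (-1.50, adjusted p = 0.0591 in edgeR), whereas CXCL14 did (2.28, adjusted p = 0.00112 in edgeR).

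ARPP19 is a target of protein kinase A, the enzyme that cAMP switches on, so genes of melanocortin and cAMP signalling were counted beside it. The list matched 42 genes, of which 28 could be tested. The melanocortin receptor genes were too low for that, at no more than 0.584 CPM in any library. The counts below thus leave the receptors out. Of 28 tested genes 0 rose and 2 fell, MGRN1 (ENSDARG00000100072) and the adenylate cyclase ADCY8, against 2.19% and 2.02% of all genes, with 5 at an unadjusted p under 0.05 in edgeR, which 19.1% of all genes had. DESeq2 called 0 higher and 4 lower, against 786 higher and 986 lower of all 18619 genes. The edgeR calls of MGRN1 and ADCY8 held in 3 and 6 of those 14 fits. In the fit lacking wild-type H replicates 6 and 7, that of ADCY8 was lost (-3.13, adjusted p = 0.0588 in edgeR) and that of MGRN1 held (-0.79, adjusted p = 0.0248 in edgeR). The other MGRN1 (ENSDARG00000004796) was at 33.0 ± 4.91 CPM in transgenic and 47.4 ± 11.2 CPM in wild-type libraries. It did not pass over all libraries (log2 fold change -0.32, SE 0.14, edgeR adjusted p = 0.229). Without those 2 libraries it passed, at -0.37 (adjusted p = 0.0221 in edgeR). The median log2 fold change of this list was -0.03, against -0.11 over all genes. The kinase subunit gene prkacaa was at 59.8 ± 6.93 CPM in transgenic and 53.1 ± 6.78 CPM in wild-type libraries (log2 fold change 0.35, SE 0.15, edgeR adjusted p = 0.221).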

How the data were processed

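Intestine RNA was sequenced in 14 libraries. Extraction used Trizol and poly-A selection came before a stranded library kit, per the labels' protocols. The submitters' processing notes list STAR 2.7.3a, featureCounts 1.6.3, FastQC and edgeR, and name GRCz11 beside mouse builds without a role. Whether counting used strand is not stated, so overlapping genes may share reads. The deposited table holds the authors' raw counts per gene, for 32520 zebrafish identifiers. The FPKM values deposited by the authors are those counts divided by gene length and column total, and carry no independent information. Symbols came from a supplied table, for 29201 identifiers.

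Members and lists were chosen with earlier results of these data known. CPM used plain column totals. Tests used edgeR 4.0.16 in R 4.3.3: filterByExpr left 18619 genes, with TMM scaling, 1 mean per group over all 14 libraries, glmQLFTest, and Benjamini-Hochberg adjustment over all tested genes at 0.05. There were 5 comparisons across genes: genotype, H against M, H against M within each genotype, and the difference of the genotype effects. The SE is the absolute log2 fold change divided by the square root of F. Alternatives were DESeq2 1.42.0, RLE factors, no filter, leaving out each library, and leaving out wild-type H replicates 6 and 7. Named genes are all members, with relatives, neighbours and list genes that pass, and the copies that share a member's symbol. Genes just outside the limits of the rule are named too. Some relatives, neighbours and list genes that did not pass, such as cbln13, slmapb and prkacaa, are also named as examples. They do not stand for the rest of their lists. The edgeR fit was tested on simulated data, for genotype and for H against M only, with the same spread for every gene. Promoter motifs were not analysed here. No library pair had identical counts.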

Additional observations from a re-analysis of the deposited data

Results flagged for a closer look

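A library was looked for that lay far from the others of its genotype or of its wild-type letter, for the 14 genes in 56 groups. The limits would mark 1 in 20 groups by chance if values were normally distributed, which does not hold for groups with few counts. In transgenic fish 1 value stood out: cbln7 at 48.2 CPM in H replicate 16, above the other 5. In wild-type fish ACKR3 stood out at 0.497 CPM in H replicate 7. CCS did so at 0.102 CPM in M replicate 4, both among all wild-type libraries and among the M libraries, xkr8.1 at 0.305 CPM in M replicate 4, YBEY at 0.194 CPM in M replicate 2, and plekhg2 at 3.78 CPM in H replicate 7, below the other H libraries. The values of CCS, xkr8.1 and YBEY are 1, 3 and 2 counts, with 0 counts in every other library of the marked group. Any count is marked in such a group, so these marks carry no information.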

How the results depend on the processing

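The set kept all 14 genes under limits of 0.5 CPM or a fold of 1.5, with TMM scaling and whenever libraries were left out, which can only add genes. It lost CCS, KCTD6 and YBEY at a limit of 2 CPM, and hbl4, luzp2, plekhg2 and dnase1l1 at a fold of 3. It grew to 28 genes at a fold of 1.5, 23 with TMM scaling, 25 without wild-type H replicates 6 and 7 and 14 to 20 with single libraries left out. It held 21 genes with vitellogenin counts out of the totals, an alternative chosen after seeing the data. The counts of the 14 genes called for H against M, for it within transgenic fish, and for the difference of genotype effects were 0 under every alternative run; within wild-type fish they were 0 to 1 with single libraries left out, the 1 being taco1 without wild-type H replicate 5. The relatives called numbered 4 with DESeq2, 7 without wild-type H replicates 6 and 7, and 1 (without transgenic M replicate 10) to 4 (without wild-type H replicate 6) with single libraries left out. The neighbours called numbered 8 with DESeq2, 8 without those 2 libraries, and 3 to 9 with single libraries left out, with 9 without wild-type H replicate 6 and 5 without wild-type H replicate 8. The chemokine genes called numbered 1 with no filter on low counts, 1 without those 2 libraries, and 0 to 2 with single libraries left out, with 0 without any 1 of the 6 transgenic or 4 wild-type M libraries and 1 without wild-type H replicate 5, 7 or 8. The melanocortin and cAMP genes called numbered 4 with DESeq2, 1 with no filter, and 0 to 4 with single libraries left out, with 0 without any 1 of the 6 transgenic libraries or wild-type M replicate 1 or 3, 1 without wild-type M replicate 4 or H replicate 5 or 7, and 4 without wild-type H replicate 6. The cause was not tested. No called gene changed sign, but the uncalled ARPP19 copy ENSDARG00000039880 had a log2 fold change of -0.50 over all libraries and 0.29 without those 2, and the median H against M difference of the 14 genes was -0.08 without wild-type H replicate 8. Of all genes 9.52% were called by DESeq2 and 7.88% without those 2 libraries, against 4.21% in the main comparison. No paired analysis was possible because the replicate numbers of the titles are not shared between groups. At the depth of these libraries, 1 count is near 0.1 CPM, which limits the wild-type values of CCS, YBEY, KCTD6 and taco1.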

Other observations

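Between the 2 CCS genes, rbm14b, an RNA-binding protein gene, was at 34.5 ± 13.3 CPM in transgenic and 70.4 ± 14.02 CPM in wild-type libraries (SD, n = 6 and 8; log2 fold change -0.86, SE 0.28, edgeR adjusted p = 0.119). In the fit lacking wild-type H replicates 6 and 7 it passed, at -1.03 (SE 0.26, adjusted p = 0.0371 in edgeR). PGAP3, 4 rows from taco1, was at 8.82 ± 0.356 CPM in transgenic and 4.55 ± 2.38 CPM in wild-type libraries (log2 fold change 1.2, SE 0.37, edgeR adjusted p = 0.0958), and passed without those 2 libraries, at 1.09 (SE 0.16, adjusted p = 0.00214 in edgeR). The deoxyribonuclease relatives dnase1l4.1 and dnase1l4.2 were at 5.49 ± 1.33 and 43.5 ± 7.37 CPM in transgenic and 10.9 ± 4.45 and 76.4 ± 32.3 CPM in wild-type libraries. Neither passed over all libraries (edgeR adjusted p = 0.209 and 0.408), and both passed without those 2 (adjusted p = 0.0121 and 0.00210 in edgeR). These genes were picked out after their values were seen.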
